A study of Mus musculus with 3 samples.

Results

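The genes described here are 10 genes of the AP-1 and early growth response group, Fos, Fosb, Fosl2, Jun, Junb, Jund, Atf3, Egr1, Klf6 and Nr4a1. They were listed by name, with no measured value in the rule but with earlier results of these data known, and make up 10 of the 21938 protein-coding genes whose promoters were counted. Their chromatin accessibility was read in LT-HSCs, the long-term stem cells at the root of blood formation. The animals were wild-type females, 24 months old, and the cells came from their bone marrow by c-Kit enrichment and sorting (Sca-1+, CD150+ and negative for CD48, CD34 and lineage markers). DOGMA-seq, the assay used, measures RNA, bound antibodies carrying DNA tags and accessible chromatin (ATAC) in each cell. Accessibility was taken as fragments over the promoter (1 kb on each side of the start), over the gene with 2 kb upstream, and over open sites within 20 kb. All cells share genotype, sex and age, so the comparisons are between cells with many and few antibody tags or RNA molecules.

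AP-1 is a dimer of a Jun protein with a Fos, Jun or ATF protein, and it binds short DNA elements at promoters and enhancers. Many of its genes are known to be transcribed within minutes of a growth factor, cytokine or stress signal, by factors that already sit at an open promoter. The same is known of the genes of the zinc finger factor EGR1 and the orphan nuclear receptor NR4A1. In blood stem cells these genes are known for their link to quiescence and to the response to stress.

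The 3 libraries (ATAC, RNA and antibody tags, 1 each) came from 1 pool of cells, and the labels do not say how many mice it held. With 1 sample per assay there is no replicate spread, so groups of cells were compared without a test. The intervals given are exact at 95%, Poisson for a level and conditional binomial for a ratio, and they hold counting error alone. Of 4369 called cells, 3724 had antibody counts and 3629 had at least 10 tags. These 3629 cells held 38498362 nuclear fragments, with a median of 10287 per cell (range 3853 to 45069), of which 37.6% overlapped a coding promoter. The median cell had 1978 RNA UMIs and 29 antibody tags. Levels are in fragments per kb per 1000000 nuclear fragments. As a check of the sort, 7 of 10 stem cell marker promoters were above the median of all coding promoters (Mecom was highest, at 27.8, and Slamf1 lowest, at 2.14), against 0 of 8 for neutrophil and monocyte markers, 1 of 6 for T cells, 2 of 6 for B cells, 2 of 6 for erythroid cells, 1 of 5 for endothelium and stroma and 4 of 6 for megakaryocytes.

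Every member had an open promoter. Their median level was 30.9, against 5.92 for all coding promoters, and 6 of 10 were above the 90th percentile of coding genes. Olfactory receptor promoters, closed in blood cells, had a median of 0.0260 over 1135 genes, and the median share of cells with a fragment was 44.98% for the members and 0.0551% for those receptors. The lowest member, Atf3, at 14.6, was still above 72.6% of coding promoters. Exact binomial 95% intervals of the members' shares of cells were at most 3.28 percentage points wide, and those of the sub-nucleosomal shares of their promoters at most 5.60.

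**Figure D1:**
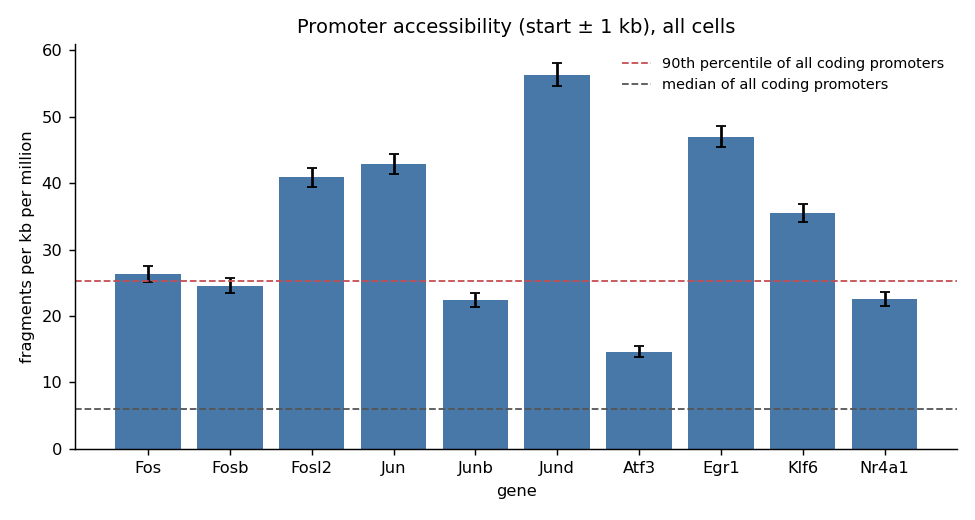
Bars give the promoter level of each gene over all 3629 cells (fragments per kb per 1000000 nuclear fragments), with exact 95% Poisson intervals. Dashed lines mark the median (5.92) and the 90th percentile (25.3) of all coding promoters; Fosb, Junb, Atf3 and Nr4a1 lie below the upper line and the other 6 above it.

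Among the Jun genes, which encode the obligate partners of Fos proteins, Jund had the highest promoter level of all 10 members, 56.4 (54.7 to 58.1), from 4342 fragments in 66.5% of cells. Jun followed at 42.9 (41.4 to 44.4) with 3304 fragments, and Junb was at 22.4 (21.3 to 23.4) with 1722. The intervals of these 3 genes did not overlap. JunD is known as the Jun protein found in resting cells, whereas c-Jun and JunB are made on stimulation.

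Among the Fos genes, Fosl2, which encodes Fra-2, was highest at 40.9 (39.5 to 42.4) with 3151 fragments in 53.5% of cells. Fos itself, the prototype immediate early gene, was at 26.3 (25.2 to 27.5) with 2026 fragments in 39.1% of cells. Fosb was at 24.5 (23.5 to 25.7) with 1891 fragments in 38.2% of cells, an interval that overlapped that of Fos. The stress factor gene Atf3 was the lowest member, with 1128 fragments in 23.6% of cells and a level of 14.6 (13.8 to 15.5).

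Of the other zinc finger and receptor genes, Egr1 was next to Jund in the 1 kb window, at 47.0 (45.5 to 48.6) with 3623 fragments in 58.6% of cells. Klf6, a Krüppel-like factor, was at 35.4 (34.1 to 36.8) with 2730 fragments in 50.9% of cells. Nr4a1 was at 22.5 (21.5 to 23.6) with 1736 fragments in 35.2% of cells, and could not be told apart from Junb. In order of level in this window the members were Jund, Egr1, Jun, Fosl2, Klf6, Fos, Fosb, Nr4a1, Junb and Atf3. The neighbours whose intervals overlapped were Jun and Fosl2, Fos and Fosb, Fosb and Nr4a1, and Nr4a1 and Junb. Within 250 bases of the start the order was Jund (152), Klf6 (103), Jun (99.4), Fosl2 (86.1), Egr1 (79.8), Nr4a1 (71.7), Fos (67.0), Junb (65.1), Fosb (55.7) and Atf3 (37.8). Jund was highest and Atf3 lowest in both windows, and Egr1 was behind Klf6, Jun and Fosl2 in the narrow one.

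Promoter sequences of 4 members are shown to let the order of levels be read beside the letters before each start: Jund, the most open member, Fos, Junb, and Klf6. Each line gives the 250 bases before the start used here, 5′ to 3′ on the gene's strand, from the reference genome GRCm38.p6 (mm10). None of the windows overlaps an annotated exon. Capitals mark GGGCGG, called SP here, the CCAAT box, a TATA box written as TATAAA, or the cyclic AMP response element (CRE), TGACGTCA, on either strand.
Jund, chr8:70698699-70698948, + strand: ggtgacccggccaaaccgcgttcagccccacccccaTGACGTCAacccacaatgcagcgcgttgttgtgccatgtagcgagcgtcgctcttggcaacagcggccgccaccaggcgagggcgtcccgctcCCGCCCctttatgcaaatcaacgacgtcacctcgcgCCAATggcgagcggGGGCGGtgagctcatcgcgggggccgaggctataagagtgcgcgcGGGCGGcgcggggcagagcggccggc
Fos, chr12:85473640-85473889, + strand: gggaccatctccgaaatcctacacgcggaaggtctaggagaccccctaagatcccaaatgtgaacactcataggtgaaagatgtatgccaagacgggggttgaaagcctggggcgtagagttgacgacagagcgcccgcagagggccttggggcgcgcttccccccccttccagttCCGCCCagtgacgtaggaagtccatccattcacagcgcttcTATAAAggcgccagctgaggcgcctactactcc
Junb, chr8:84978719-84978968, - strand: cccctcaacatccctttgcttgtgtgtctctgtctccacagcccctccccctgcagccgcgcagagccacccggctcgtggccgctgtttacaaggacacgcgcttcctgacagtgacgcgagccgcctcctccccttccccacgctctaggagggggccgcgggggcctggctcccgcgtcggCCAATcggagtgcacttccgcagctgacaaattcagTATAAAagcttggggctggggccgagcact
Klf6, chr13:5861232-5861481, + strand: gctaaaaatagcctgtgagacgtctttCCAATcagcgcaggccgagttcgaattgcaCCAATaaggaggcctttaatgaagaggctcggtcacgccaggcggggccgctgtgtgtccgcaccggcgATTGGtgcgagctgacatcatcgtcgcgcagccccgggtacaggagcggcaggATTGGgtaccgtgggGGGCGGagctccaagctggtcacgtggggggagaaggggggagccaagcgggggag

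The Fos and Junb windows each held a TATAAA close to the start, at -33 to -28 in Fos and -30 to -25 in Junb, counted back from the base before the start as -1. Jund held a full CRE at -214 to -207 and 3 SP matches, and Klf6 held 4 CCAAT matches. Among the windows not printed, Atf3, the least open member, held 5 SP matches, Fosb and Nr4a1 3 each, and Fosl2 and Jun 1 each. The number of SP matches thus did not follow the order of levels. In RefSeq's promoter table (GRCm38.p6, 300 bases from 250 before to 50 after a start), 9 of the 10 members had an entry. Over all 32851 promoters of that table, GGGCGG was in 35.7%, CCAAT in 37.4%, TATAAA in 13.6%, TGACGTCA in 1.79%, TGANTCA (the AP-1 site) in 7.81%, GCGTGGGCG (the EGR site) in 0.612% and the CArG box, bound by serum response factor, in 1.63%. Both strands were searched. Within these 300 bases, none of the 9 member entries held the AP-1 letters, the EGR letters, the full CRE or the CArG box in its exact form. The entries end 250 bases before a start, so bases further upstream were not in this search, and neither was Egr1. The Jund and Fosl2 entries lie 1210 and 671 bases from the starts used here, and the other 7 lie within 30 bases of theirs, so that the CRE of the printed Jund window is outside its entry. GC content of the 9 entries ran from 46.7% (Jund, the entry 1210 bases away) to 72.3% (Nr4a1), against a median of 52.7% over all promoters. In the 250 bases before the starts used, GC content of the 9 genes ran from 58.4% (Fos) to 74.8% (Fosl2), with 69.6% in Jund.

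The highest cuts lay close to each start, in a single peak in some genes and in 2 in others. The bin with most cuts lay between 325 bases before and 75 bases after the start in all 10 genes. Jund had the highest peak, 405 cuts per kb per 1000000, at 25 bases before its start, and Klf6 the next highest, 369, at 75 bases before. Fos had 2 peaks of similar height, 230 at 325 bases and 234 at 75 bases before its start, with 17.7 between them at 175 bases. Fosb likewise had 255 at 275 bases and 184 at 25 bases before its start, with 10.4 between them at 125 bases. Nr4a1 was the most focused, with 60.8% of the cuts within 2 kb falling within 250 bases of the start, and Egr1 the least, with 22.4%. In Egr1, on chromosome 18, 63.3% of the cuts lay further upstream than 250 bases. The Egr1 start with most cuts is 1384 bases inside the gene's outermost end, so that signal between these 2 starts lies within the annotated gene. The window of the outer start had 2908 fragments against 3623. The 2 windows overlap, so fragments in the shared bases were counted in both.

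**Figure D2:**
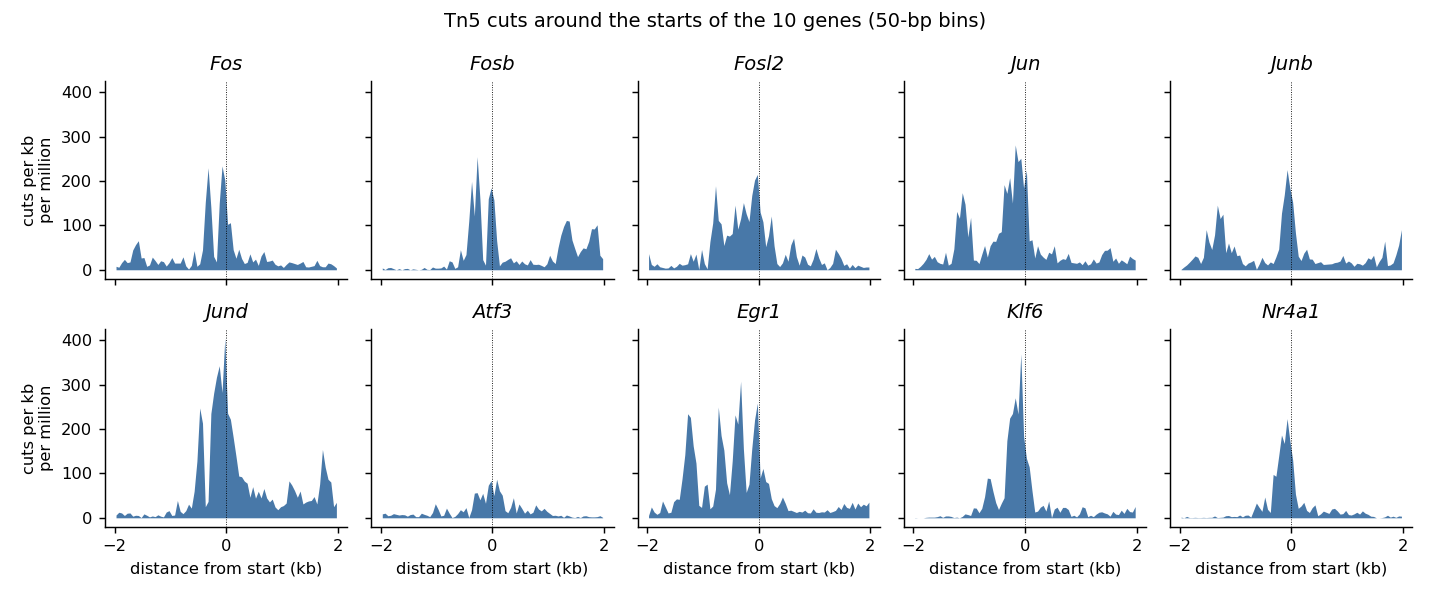
Each panel shows the transposase cuts of all 3629 cells around 1 gene start (x axis, kb in the direction of transcription; y axis, cuts per kb per 1000000 nuclear fragments, 50-base bins, same scale in all panels). Jund and Klf6 have the tallest peaks, Atf3 the lowest (86.8), and Egr1 the broadest signal upstream of its start.

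Start choice mattered for other members too. Atf3 has an outer start 34699 bases upstream of the one used, with 37 fragments against 1128, and Nr4a1 has one 12577 bases upstream, with 1047 fragments against 1736. Fragments at the Jund promoter were short: 56.8% were sub-nucleosomal, shorter than the DNA wrapped on a nucleosome, which placed it above 94.3% of the 13674 coding promoters with at least 200 fragments. Klf6 had 55.1% and Nr4a1 51.9%, while Fos, at 38.1%, was at the median of coding promoters (38.0%) and Atf3, at 33.6%, below it.

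At the threshold used here, the open site at the start extended over the whole gene in most members. Site lengths at other thresholds were not measured. Open sites were runs of 100-base bins with at least 8 times the genome's mean number of cuts, of which there were 63778. The site at the start spanned 10600 bases in Fosb, 9600 in Egr1, 9400 in Jund, 7700 in Fos, 7100 in Junb, 6200 in Jun, 5400 in Klf6, 5100 in Fosl2, 3200 in Atf3 and 2300 in Nr4a1. The median length was 1500 bases over the 13697 sites at coding promoters, and their 90th percentile was 2600. Nr4a1 was thus the 1 member below that percentile, and Fosb was above 99.96% of promoter sites. The Jund site is within 1 kb of a start of Iqcn as well, so it cannot be assigned to Jund alone.

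Counted over the whole gene with 2 kb upstream, Jund was again highest at 36.1 (35.2 to 37.1), followed by Jun at 26.6 (25.9 to 27.4), Egr1 at 21.99 (21.4 to 22.6) and Junb at 20.7 (20.2 to 21.3). These 4 genes, with Fos at 14.8 and Fosb at 15.4, were above 99% of coding genes on this scale, whose median was 0.822. Junb thus stood near the top by gene level while its promoter was only above 86.5% of coding promoters. Short genes gain on this scale because the promoter makes up more of the counted length, and Jund is 1668 bases long and Junb 4235, against 47744 for Atf3, which had a gene level of 1.37.

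Beyond the sites at the starts used there were 57 open sites within 20 kb of a member (26 upstream, 21 downstream, 8 in introns and 2 in exons), so that 67 sites lay in these regions in all. By gene there were 13 for Nr4a1, 9 for Fosb, 8 each for Fos and Jund, 7 for Junb, 6 each for Atf3, Egr1 and Klf6, and 2 each for Fosl2 and Jun. At this threshold Jun and Fosl2 had a single further site each, whereas Nr4a1 had 12 sites besides the one at the start used. Of these 12, the site at -12695 bases (1019 fragments) lies at the gene's other annotated start, so 11 were away from both, and it was the 1 site of the 57 at another start of its member. The counts by gene moved with the threshold. At 16 times the genome mean Jun had 1 site in all, Fosl2 3, Jund 3, Fos 10 and Nr4a1 11, and in the 363 cells with at least 50 tags Jun and Fosl2 had 4 each and Nr4a1 16. Of the 57, 7 had another coding gene's start within 1 kb, and these cannot be assigned to the member.

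**Figure D3:**
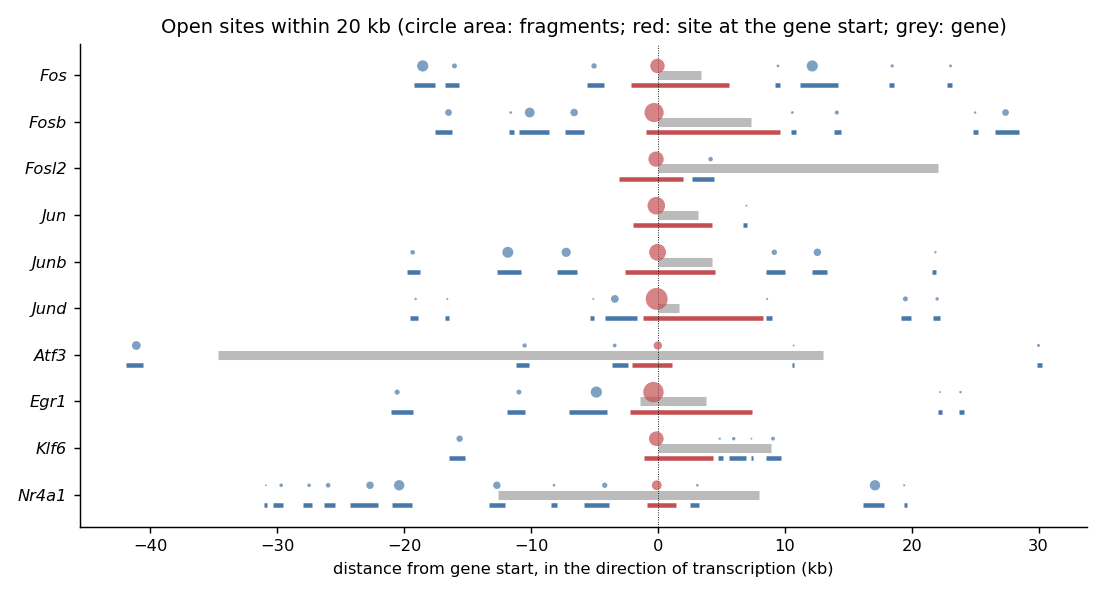
Open sites within 20 kb of each gene by distance from its start (kb, in the direction of transcription). Red marks the site at the start used, blue the others, bars show their extent, circle area is proportional to fragments and the grey bar is the gene; Fosl2 and Jun have 1 blue site each and Nr4a1 has 12, of which that at -12695 bases is at its other annotated start.

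The 3 strongest of these sites with no other coding start nearby belonged to Fos and Egr1. A site at -18539 bases from the Fos start held 2325 fragments in 45.2% of cells, and 62.8% of its fragments were sub-nucleosomal. That is more than the 2026 of the Fos promoter window. It is fewer than the 3858, in 58.4% of cells, of the whole open site at the Fos start. A site 12161 bases downstream of the Fos start held 2291 fragments in 44.4% of cells, and a site at -4856 bases from the Egr1 start held 2304 in 43.8%. At Nr4a1 the strongest site unique to it lay at -20395 bases, with 1977 fragments, of which 60.7% were sub-nucleosomal. At Fosb it was at -10105 bases (1778 fragments) and at Junb at -7233 bases (1567). Atf3 had a site of 1419 fragments at -41111 bases from the start used, which overlaps exons of the non-coding gene D730003I15Rik.

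The letters of 2 distal sites are shown because they hold the element of an AP-1 or serum response factor in the 300 bases around the summit. Both are on the + strand of GRCm38.p6 and overlap no annotated exon. Capitals mark the AP-1 site, the CRE, the CArG box, or the ETS element CCGGAA, the GATA element AGATAA and the RUNX element TGTGGT, on either strand.
Fos, 12161 bases downstream of the start, chr12:85485901-85486200: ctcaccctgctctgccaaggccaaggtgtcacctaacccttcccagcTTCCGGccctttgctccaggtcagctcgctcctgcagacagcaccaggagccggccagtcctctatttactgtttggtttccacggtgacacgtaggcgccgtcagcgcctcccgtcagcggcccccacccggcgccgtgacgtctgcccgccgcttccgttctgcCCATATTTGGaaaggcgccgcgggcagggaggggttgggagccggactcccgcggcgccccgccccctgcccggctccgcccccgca
Klf6, -15631 bases from the start, chr13:5845701-5846000: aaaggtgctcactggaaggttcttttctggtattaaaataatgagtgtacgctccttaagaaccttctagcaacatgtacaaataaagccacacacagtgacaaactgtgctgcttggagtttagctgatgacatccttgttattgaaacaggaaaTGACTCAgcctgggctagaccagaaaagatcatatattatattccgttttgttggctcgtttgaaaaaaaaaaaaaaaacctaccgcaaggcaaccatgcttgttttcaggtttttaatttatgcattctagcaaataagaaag

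The Fos site held CCATATTTGG, a CArG box, at positions 214 to 223 counted from its first base, and an ETS match at 48 to 53. The Klf6 site (754 fragments) held TGACTCA at 157 to 163. The AP-1 letters were in 7 of the 52 sites near members other than Egr1 (13.5%), beside 14.3% of 48532 distal sites (over 1 kb from the start used of any coding gene) and 4.43% of 13350 sites at coding promoters, with chromosome 18 left out. Of the 52 sites, 6 lie within 1 kb of another gene's start and held none, and 7 of the 46 distal ones (15.2%) held the letters, a share near that of all distal sites. The CArG box was in 1 of the 46 (2.17%), a single site, beside 1.48% of all distal sites. The ETS letters were in 7 of the 46 (15.2%), beside 6.75% of all distal sites. These 7 include the site at the other annotated start of Nr4a1, and sites at coding promoters held the letters in 25.5%. The GATA letters went the other way, in 2 of the 46 (4.35%) beside 13.4%. The RUNX letters were in 13 (28.3%) beside 30.0%. None of these differences was tested.

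Most genes that act with the members lay above the median of coding promoters, and 8 did not (Batf, Batf2, Batf3, Egr4, Ccn1, Ccn2, Rgs1 and Cd69). Of 18 other AP-1 family genes, 15 were above the median and 10 above the 90th percentile of coding promoters, from Atf5 at 41.1 to Batf2 at 3.21. Of 14 other EGR, KLF and NR4A genes, 13 were above the median and 8 above the 90th percentile, from Klf13 at 56.8, as high as Jund, to Egr4 at 2.76. Egr2 (20.2), Egr3 (9.85) and Egr4 were thus all below Egr1, and Nr4a2 (18.6) and Nr4a3 (20.9) near Nr4a1.

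Among 14 feedback inhibitors, which turn off the same signals, 9 were above the 90th percentile and all 14 above the median. Dusp10, a phosphatase of stress kinases, was highest at 43.9 and Spry1, an inhibitor of receptor signaling, lowest at 15.2. Of 17 upstream kinases and factors, 7 were above the 90th percentile, from Elk4 at 34.7 to Elk1 at 8.75, with all 17 above the median. Of 14 other immediate early genes, 10 were above the median and 4 above the 90th percentile, and Btg1 was highest at 38.2 and Cd69 lowest at 1.52. The medians of these lists ran from 18.8 to 30.7, against 30.9 for the members and 5.92 for all coding promoters.

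Within a single cell the members were seen as a sparse sample. The median cell had a fragment at 5 of the 10 promoters, 18 cells had none and 7 cells had all 10. When each cell was thinned to 5000 fragments, which left out 90 cells, the median was 3, and the share of cells with a fragment ran from 12.6% for Atf3 to 42.8% for Jund. The order of the top 5 genes by this share (Jund, Egr1, Jun, Fosl2 and Klf6) was that of their levels. No cell had more than 9 fragments at 1 member promoter.

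The members did not vary together from cell to cell to a degree these counts could show. After the depth of each cell was taken into account, the median Pearson correlation over the 45 pairs of promoters was 0.000914, with a range from -0.029 (Fos with Klf6) to 0.055 (Fosl2 with Klf6), across 3629 cells that share 1 library. Such values in sparse counts are no finding. The promoters that followed the members' sum most closely, among 11094 covered in at least 10% of cells and more than 1 Mb from any member, were Dusp8 (0.072), Nt5dc2 (0.069) and Ppm1d (0.063).

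Member promoters were lower in RNA-rich cells. In the quartile of cells with the most RNA (905 cells, 2398 to 7707 UMIs) the members' mean level was 30.7, and in the quartile with the least (907 cells, 499 to 1647 UMIs) it was 36.5, a log2 ratio of -0.25 (-0.30 to -0.20). The median over all 11638 coding promoters with at least 200 fragments was -0.11. All 10 members had a negative ratio in these cells, from -0.30 in Nr4a1 to -0.04 in Atf3. The median of all coding promoters was negative too, and the share of them below 0 was not counted. In 9 of them, all but Atf3, the interval left out 0. That was so for 23.8% of the 11638 coding promoters, and for 35.4% of the 6014 covered at least as well as Atf3. No member passed 0.32 on the log2 scale in either direction, the size used here to call a difference, against 7.58% of coding promoters.

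Jund went from 60.2 in the RNA-poorest quartile to 58.9, 58.8 and 49.7 in the RNA-richest. Egr1 went from 52.4 to 47.2, 46.1 and 43.9, and Fos from 30.0 to 25.7, 25.9 and 24.5. Atf3 stayed between 13.9 and 15.1 in all 4 quartiles. Its log2 ratio rests on 343 and 249 fragments, with an interval of -0.28 to 0.20. That interval holds the members' ratio of -0.25 as well, so Atf3 cannot be told apart from the members' sum. The members' mean was lower in each successive quartile (36.5, 34.0, 33.1 and 30.7), with its largest steps at both ends.

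**Figure D4:**
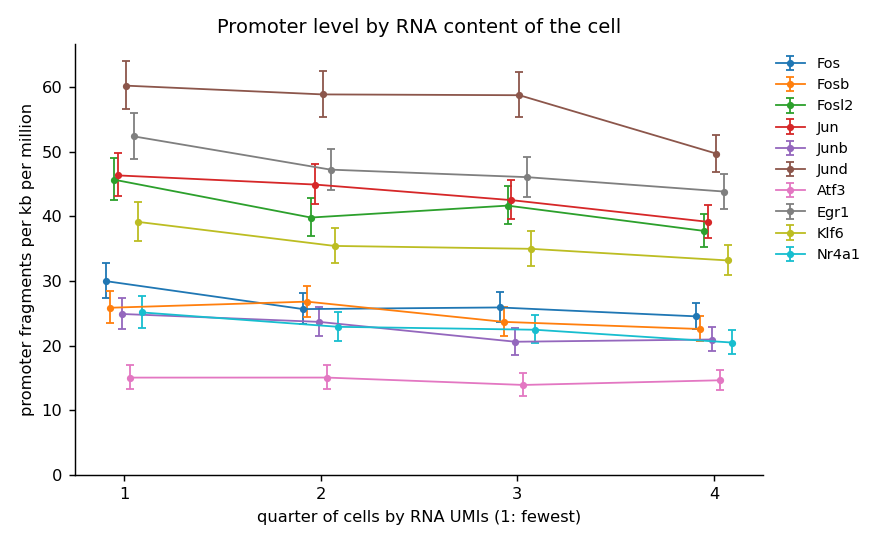
Promoter level of each gene (fragments per kb per 1000000 nuclear fragments, with exact 95% Poisson intervals) in cells split by RNA UMIs into 4 groups of 905 to 912 cells, from fewest to most. Jund and Egr1 lie highest in every group and are lowest in the RNA-richest one. Atf3 lies between 13.9 and 15.1, on the fewest fragments of the members.

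Chromatin depth moved with RNA content: RNA-rich cells had a median of 12104 nuclear fragments and 36.3% of them in coding promoters, against 9102 and 39.2% in RNA-poor cells. Split by ATAC fragments instead, the members were at 30.3 in the deepest quartile and 38.2 in the shallowest, a log2 ratio of -0.33 (-0.38 to -0.28), with a median of -0.18 over all coding promoters. Here 6 of 10 members passed 0.32, against 19.4% of coding promoters and 25.5% of the 6014 covered at least as well as Atf3. The 6 were led by Klf6 (-0.41), Jund (-0.39) and Nr4a1 (-0.37). When RNA quartiles were formed within 10 strata of ATAC depth, the members' ratio was -0.11 (-0.16 to -0.06) and the median of all coding promoters -0.04. Scaled by the fragments in all coding promoters, the ratio by RNA UMIs was -0.14 (-0.19 to -0.09), and in the 363 cells with at least 50 tags it was -0.087 (-0.23 to 0.06). The direction of single members was not the same in those cells, where Fosb (0.06, -0.49 to 0.64), Junb (0.32, -0.23 to 0.91) and Jund (0.20, -0.17 to 0.59) were above 0 and all 10 intervals included 0.

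Per ATAC fragment the order turned. In the quartile with the most UMIs per nuclear fragment the members' mean was 33.8 and in that with the fewest 31.9, a log2 ratio of 0.08 (0.03 to 0.14), with a median of 0.06 over all coding promoters. Of the members, 7 were above 0, as was the median of all coding promoters, whose share above 0 was not counted. Klf6 was highest at 0.26 (0.10 to 0.42), Jund was at 0.17 (0.04 to 0.30) and Junb was lowest at -0.17 (-0.38 to 0.04). None passed 0.32, against 4.41% of coding promoters. Scaled by the fragments in all coding promoters the members' ratio was 0.017 (-0.03 to 0.07), and with at least 50 tags it was -0.021 (-0.18 to 0.14). Cells with many UMIs per fragment had fewer fragments (median 7765 against 11736). In all 3 splits the group with more ATAC fragments per cell had the lower member level, and the part of ATAC depth beyond the split within strata was not tested.

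**Figure D5:**
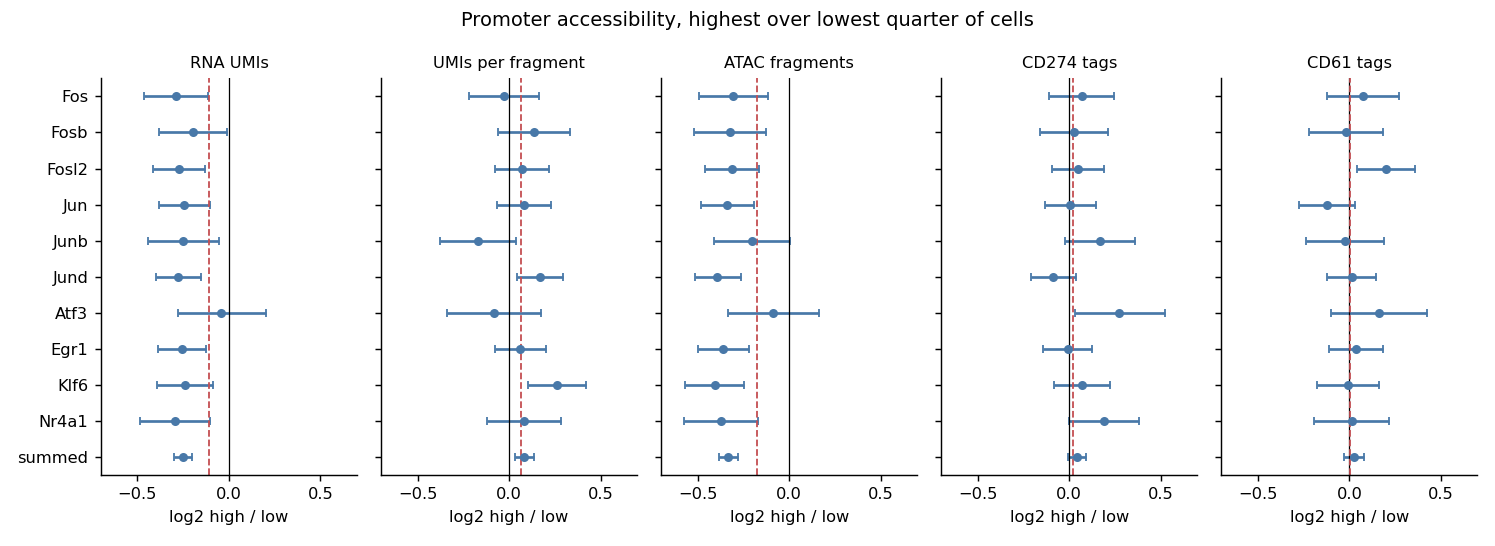
Log2 ratio of promoter level, highest over lowest quartile of cells, for each member and their sum (points, with exact conditional binomial 95% intervals), by RNA UMIs, UMIs per fragment, ATAC fragments, CD274 tags and CD61 tags. The dashed red line is the median of all coding promoters (-0.11, 0.06, -0.18, 0.02 and 0.0042); members lie left of 0 for RNA and ATAC depth, on both sides for UMIs per fragment, and around 0 for both antibodies.

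The antibody panel of 12 surface proteins was used to ask whether accessibility of these genes goes with markers of platelet-biased (PLT) or multilineage (MUL) stem cells. CD274 and CD61 were taken as PLT markers and CD357 and CD27 as MUL markers. In CD274-high cells (937) the members' mean was 33.9 and in CD274-low cells (877) 32.9, a log2 ratio of 0.04 (-0.01 to 0.09). For CD61 the ratio was 0.03 (-0.03 to 0.08), for CD357 -0.01 (-0.06 to 0.04) and for CD27 0.0028 (-0.042 to 0.048). All 4 intervals included 0. Median summed tags were 46 in CD274-high and 17 in CD274-low cells, and 36 and 22 for CD61. They were 36 and 25 for CD357 and 33 and 27 for CD27, so each split is in part one by total tags. In the 363 cells with at least 50 tags the ratios were 0.16 (0.01 to 0.31) for CD274, -0.059 (-0.20 to 0.08) for CD61, -0.060 (-0.22 to 0.10) for CD357 and 0.10 (-0.05 to 0.25) for CD27. The share of coding promoters past 0.32 was 5.46%, 4.57%, 2.95% and 3.1%, and of the members only Atf3 passed it, in CD357.

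Atf3 was at 13.1 in CD357-high cells (279 fragments) and 17.0 in CD357-low cells (425), a log2 ratio of -0.38 (-0.60 to -0.16), but at its outermost start, with 37 fragments in all cells, the ratio was 0.23 (-1.19 to 1.65). It was at 15.7 in CD274-high and 13.0 in CD274-low cells, a ratio of 0.27 (0.03 to 0.52). Fosl2 was at 44.8 in CD61-high and 39.0 in CD61-low cells, a ratio of 0.20 (0.04 to 0.36). Of the 120 pairs of member and antibody, 8 had an interval that left out 0, these 3 with Atf3 and Egr1 in CD201, Jund in P2X7R and MERTK, and Egr1 in CD206. Over all coding promoters tested the share was 6.55% of pairs, so the members' count is near the background.

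Across all 12 antibodies, 4 of the 120 pairs passed 0.32, beside 10.7% of the 155886 promoter and antibody pairs. The members are better covered than most promoters, and among the 6014 promoters with at least the 1128 fragments of Atf3 the share was 4.15%, so this count is near the background as well. The other 3 were Egr1 (0.38), Fos (0.37) and Fosl2 (-0.33) in CD206, where the high group held 82 cells and the Fos and Fosl2 intervals included 0. In the other antibodies no member passed it, against 2.2% of coding promoters for P2X7R, 4.95% for MERTK, 2.41% for CD201, 2.76% for CD106, 11.4% for CD68, 14.5% for CD183 and 37.4% for CD163, with 33.5% for CD206. These shares follow the size of the high group, which was 71 cells for CD163 and 1325 for P2X7R. Of the 12 sums over the members, 3 had an interval that left out 0: CD201 (0.07, 0.03 to 0.11), P2X7R (-0.04, -0.078 to -0.0048) and CD68 (-0.08, -0.15 to -0.01). The medians over all coding promoters were 0.022, -0.0060 and 0.0093 there.

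In cells above the median for CD61 and CD274 and not above it for CD357 and CD27 (342 PLT-gated cells) the members' mean was 34.7, and in the opposite gate (61 MUL-gated cells) it was 35.2, a log2 ratio of -0.02 (-0.17 to 0.13). Only 6 members reached 200 fragments over both gates, of which 1 passed 0.32, against 22% of coding promoters. The MUL gate is thus too small to place single members.

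Open sites near the members were compared in the same way. Of the 37 sites with at least 200 fragments over both RNA groups, 6 passed 0.32, against 11.3% of all open sites, and the median log2 ratio of the 37 was -0.19, beside -0.11 for all sites. Of the 6, 5 were lower in RNA-rich cells, among them the site at the other start of Nr4a1 (-0.41, -0.67 to -0.16), and a site upstream of Egr1 was higher (0.35, -0.05 to 0.77). The lowest were the Klf6 site at -15631 bases (171 fragments in RNA-rich and 187 in RNA-poor cells, -0.63, -0.94 to -0.32) and the Fosl2 intron site (-0.57, -0.99 to -0.16). Per ATAC fragment the Klf6 site was at -0.02 (-0.33 to 0.28), and 2 of 33 sites passed the fold, against 6.3%.

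For the antibodies, 1 of 35 sites passed 0.32 for CD274 (10.1% of all sites), 0 of 31 for CD61 (6.68%), 0 of 38 for CD357 (5.61%) and 2 of 38 for CD27 (5.14%). The site past the fold for CD274 was the same Klf6 site upstream, at 0.35 (0.04 to 0.66), with 213 fragments in CD274-high and 151 in CD274-low cells. Those for CD27 were sites upstream of Nr4a1 (0.43, 0.07 to 0.78) and Fos (0.33, 0.01 to 0.64).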

How the data were processed

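ATAC, gene expression and antibody tag libraries of 1 pool of LT-HSCs were used. Per the file headers, the authors ran cellranger-arc 2.0.2 with mm10, which shifted fragment ends to the site of transposition and kept 1 line per duplicated fragment. Deposited values were counts without normalization (fragments, UMIs per barcode and antibody tags per cell), beside barcodes and coordinates. The RNA matrix was not analysed here. No per-sample columns were left unmapped.

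Barcodes with at least 10 summed tags were kept, and doublets were not removed. Genes were GENCODE M21. For each gene the coding transcript start with most cuts within 250 bases was used, and fragments overlapping 1 kb on each side were counted and divided by nuclear fragments. Log2 ratios had 0.5 added to each count. Groups were the highest and lowest 25% of cells, as near as ties allow. For antibodies with few tags, ties set the high cells against all the others, as in CD163 (71 against 3558) and CD206 (82 against 3547). With 1 sample per assay there was no test, and called means past 0.32 on the log2 scale, among features with at least 200 fragments over both groups. Open sites were bins of 100 bases, smoothed over 3, at 8 times the genome mean, joined within 200 bases and at least 200 bases long. Correlations across cells used promoter counts minus those expected from the cell's promoter fragments.

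The genes named were the 10 members, the highest and lowest promoter of each pathway list, and the 3 genes most like the members. Egr2, Egr3, Nr4a2, Nr4a3, the highest and lowest stem cell markers and the pathway genes below the median were named after their values were seen. The members, lists and tests were chosen with earlier results of these data known. The split by ATAC fragments, the ETS, GATA and RUNX letters, the scan of the 250 bases before the start used, the shares over well covered promoters, and the lengths, motifs and contrasts of sites were added after the data were seen, and the sites singled out were chosen after their values were seen. The ratio code was tested on simulated data. Alternatives were other cell filters (at least 50 tags, no minimum, without the deepest 5% of cells), promoter windows, starts, scalings, antibody scales, group sizes, thinning to 5000 fragments and site thresholds. Software was Python 3.11.15, numpy 2.4.6, scipy 1.17.1, pandas 2.3.3 and matplotlib 3.10.9.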

Additional observations from a re-analysis of the deposited data

How the results depend on the processing

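The values have no test, and one was taken as unmoved where it stayed within its 95% interval, a count within 1.5 times and a correlation within 0.05 of the main one. Of the alternative values of the main results, 79 were unmoved and 21 moved. The members' ratios per ATAC fragment and for CD61 changed sign with at least 50 tags, with intervals that included 0 there, and in the RNA contrast Fosb (0.06), Junb (0.32) and Jund (0.20) were above 0 in those cells, also with intervals that included 0. No paired analysis was possible because each assay has 1 sample. With 250 bases on each side of the start the members' mean promoter level was 81.8, and at the outermost gene ends 30.1, in place of 33.3. Within 10 kb there were 42 open sites in place of 67. The RNA ratio of the members (-0.25) was -0.14 when scaled by all coding promoter fragments, -0.18 over gene bodies, -0.15 between the upper and lower 50% of cells, -0.11 within 10 strata of ATAC fragments and -0.087 with at least 50 tags. That per ATAC fragment (0.08) was 0.017 when scaled by coding promoters, 0.018 between the upper and lower 50% and -0.021 with at least 50 tags. With at least 50 tags, which leaves 363 cells, the ratio was 0.16 for CD274, -0.059 for CD61, -0.060 for CD357 and 0.10 for CD27. The number of member and antibody pairs past 0.32 (4 of 120) was 39 with at least 50 tags, 10 with 250 bases, 9 at the outermost ends, 9 after thinning, 2 with centred log ratios and 1 over gene bodies. The counts with at least 50 tags and at the outermost ends include pairs under the minimum of 200 fragments, which 68 of the 120 pairs reached with at least 50 tags (22 past 0.32) and 108 at the outermost ends (3 past it), and all 120 under the others. Of all promoter and antibody pairs with 200 fragments, 10.7% passed it in the main setting, and 32.0%, 11.8%, 10.8%, 15.6%, 3.52% and 7.55% under these alternatives, in the same order. At single genes, Atf3 in CD357 was 0.23 at its outermost end, which has 37 fragments. Fosl2 in CD206 was 0.46 with at least 50 tags, where the high group holds 7 cells, and Fos in CD206 was -0.064 with centred log ratios, which compare 907 with 908 cells in place of the 82 tagged ones. These 3 values have the other sign than the main ones, and all 3 intervals included 0.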
